A study of Homo sapiens with 8 samples.

Results

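Tumour cells can carry surface proteins that damp the immune cells they meet, and 8 genes of this kind were followed here among the 60646 genes of the deposited count table: CD274, PDCD1LG2, CD276, VSIR, CD47, PVR, NECTIN2 and LGALS9. They were chosen by symbol, each matched 1 Ensembl gene, and 8 of 8 passed the filter on low counts that left 19877 genes for testing. The cells were MDA-MB-231, an established line of human triple-negative breast cancer cells. RNA came from 4 knockout samples (DOT1L/+ KO, made with a guide RNA against exon 1 of DOT1L) and 4 wild-type samples. The samples of each group are titled T1, T2, T3 and T5, read here as replicates 1, 2, 3 and 5. The labels do not say how many clones or edited alleles the knockout holds, nor whether replicates came from separate cultures, so every p-value reflects only how far these samples spread, possibly for technical reasons. DOT1L is the methyltransferase of histone H3 lysine 79.

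Checkpoint ligands bind inhibitory receptors on T cells, natural killer (NK) cells or macrophages. PD-L1 (CD274) and PD-L2 (PDCD1LG2) engage PD-1, CD47 engages SIRPA and restrains phagocytosis, and PVR and NECTIN2 are shared by the inhibitory receptor TIGIT and the activating receptor CD226. B7-H3 (CD276) and VISTA (VSIR) belong to the same B7 family as PD-L1, and galectin-9 (LGALS9) is a secreted and surface lectin that binds TIM-3. Interferons induce CD274 through STAT and IRF transcription factors. RNA levels are not a measure of protein at the surface, which was not analysed here.

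The libraries held 46713622 to 49308625 counts in the knockout samples and 40103408 to 50031412 in the wild-type samples. DOT1L, the targeted gene, had 85.3, 78.1, 83.2 and 92.3 CPM (the usual per-library rate of counts, with trimmed-mean scaling) in knockout replicates 1, 2, 3 and 5, against 114.7, 100.9, 103.3 and 118.3 CPM in the wild-type ones. Its log2 change (knockout minus wild-type throughout) was -0.37 (SE 0.06, adjusted p = 2.83e-05), and a gene-level count does not show how much intact transcript remained. The knockout differed broadly, with 47.6% of all tested genes passing an adjusted p below 0.05, 23.9% higher and 23.6% lower in the knockout. Higher calls made up 50.3% of the calls, but 61.9% with upper-quartile scaling and 61.2% with library totals alone. VIM, a mesenchymal gene abundant in the labelled line, stood at 3872 ± 193 CPM in knockout and 2941 ± 204 CPM in wild-type samples (SD, n = 4 each). Immune cell genes were close to 0. Of 12 T and NK cell markers 11 stayed under 1 CPM in every library, and the 12 summed to 2.34 to 3.05 CPM in knockout and 1.77 to 2.38 CPM in wild-type samples, mostly from CD8A, while NKG7 had no count. Of 10 macrophage and monocyte markers 9 stayed under 1 CPM, summing to 2.45 to 3.74 CPM in knockout and 1.01 to 1.75 CPM in wild-type samples, and FCGR1A had no count. CD8A (2.45 CPM in knockout and 1.63 CPM in wild-type samples) and 3 of 4 tested macrophage markers rose, CSF1R (1.43 and 0.686 CPM), CD68 (0.515 and 0.299 CPM) and MRC1 (0.384 and 0.136 CPM). The count of macrophage markers that rose was 2 with DESeq2, limma-voom or the authors' variance-stabilized values, and 2 to 4 when single libraries were left out. The part of these immune cell genes in the results below was not tested. Of 6 genes listed as abundant in the line VIM rose, EGFR, AXL and ITGB1 fell and 2 did not pass. Of 4 tested epithelial and luminal markers ERBB2 and KRT19 fell, ESR1 rose and EPCAM did not pass. ERBB2 had 73.8 CPM in knockout and 86.9 CPM in wild-type samples, and KRT19 50.3 and 79.4 CPM. ESR1 stayed under 1 CPM, at 0.538 CPM in knockout and 0.262 CPM in wild-type samples (adjusted p = 0.0333), and its groups overlapped. Its call was lost in some other settings, among them DESeq2 and several fits with a single library left out. CDH1 had 41 counts over the knockout and 1 over the wild-type group.

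Of the 8 ligands, CD274 and LGALS9 rose, PVR, CD276, NECTIN2 and CD47 fell, and PDCD1LG2 and VSIR did not pass. That is 6 of 8 called (2 higher, 4 lower), against 47.6% of all tested genes, so the number called says little about the ligands as a class. Their median log2 change was -0.16, against 0.00 over all tested genes. In CPM, groups did not overlap in 3 of the 8, CD276, CD47 and PVR, against 43.4% of all tested genes. Which ligands overlapped depended on the scaling, as given below. LGALS9 was the 1 ligand of 8 called with a change of at least 2-fold, against 9.36% of all tested genes. Apart from LGALS9, a gene at the edge of detection, the called changes were small, between -0.31 and 0.33 on the log2 scale. A larger change in either direction was seen in 38.0% of tested genes for CD274, 40.5% for PVR, 51.6% for CD276, 58.8% for NECTIN2 and 68.5% for CD47.

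**Figure D1:**
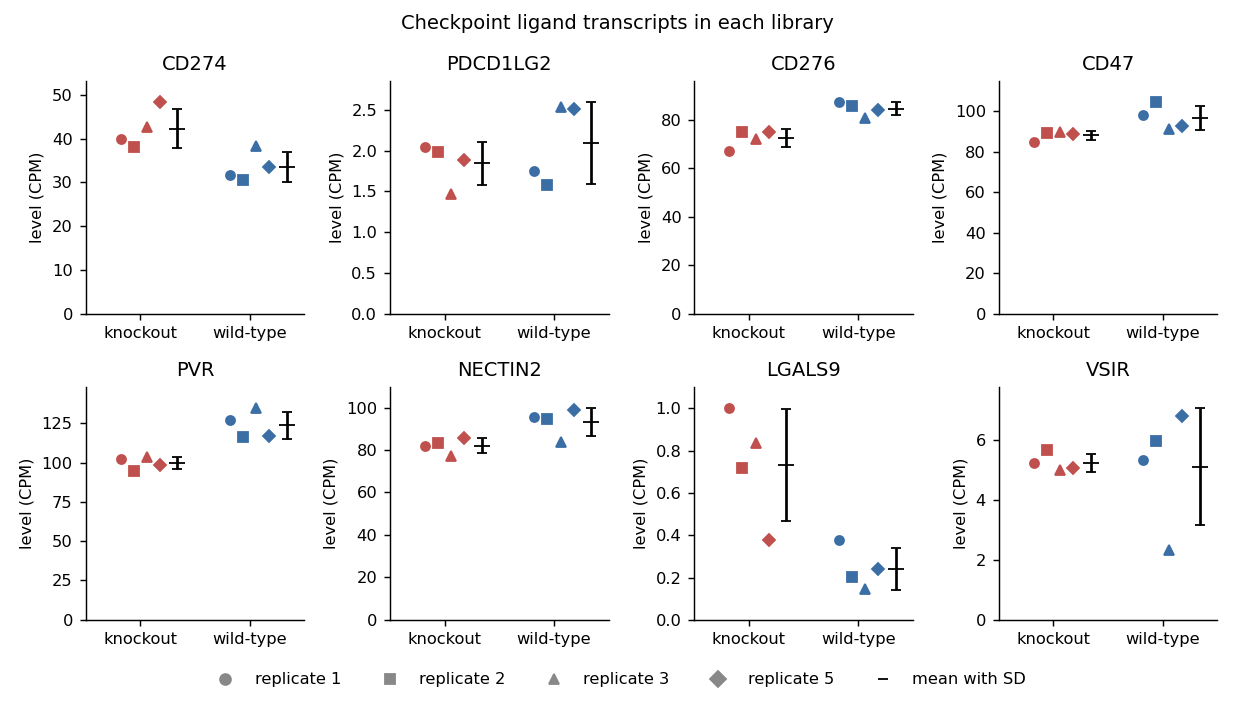
Level of each ligand in CPM (vertical axis from 0) in the 4 knockout (red, left) and 4 wild-type (blue, right) libraries; symbols mark the replicate number and black bars the mean with SD. Knockout and wild-type points are apart for CD276, CD47 and PVR, overlap by a single pair of near-equal libraries for CD274 and LGALS9, and overlap for the others, and wild-type replicate 3 of VSIR lies at 2.35 CPM, far below the other wild-type libraries.

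Levels of different genes were compared in TPM, counts divided by exon length and scaled to the same sum in every library. TPM leave out the trimmed-mean scaling used for CPM, so group differences in TPM and in CPM are not the same. In bulk RNA, fewer cells that carry a transcript and less of it per cell cannot be told apart. PVR was the most abundant, at 93.1 ± 4.19 TPM in knockout and 108 ± 4.18 TPM in wild-type samples (SD, n = 4 each here and below). NECTIN2 followed at 72.0 ± 4.34 and 77.0 ± 7.60 TPM, then CD276 at 42.9 ± 2.76 and 47.3 ± 2.61 TPM. CD47 and CD274 came next, in that order by mean in both groups. In the knockout CD47 (35.2 ± 1.33 TPM) and CD274 (33.9 ± 4.37 TPM) overlapped, while in wild-type samples CD47 (36.3 ± 2.85 TPM) lay above CD274 (25.2 ± 2.08 TPM) in every library. VSIR (3.36 ± 0.164 and 3.12 ± 1.25 TPM) and PDCD1LG2 (2.56 ± 0.366 and 2.73 ± 0.651 TPM) were far less abundant, and their values overlapped in wild-type but not in knockout libraries. LGALS9 was lowest, at 0.419 ± 0.146 TPM in knockout and 0.131 ± 0.0529 TPM in wild-type samples. In TPM the groups did not overlap for CD274, PVR and LGALS9. They overlapped for CD276 (46.1 TPM in knockout replicate 5, 43.4 in wild-type replicate 3) and CD47 (36.7 and 33.0 TPM in the same libraries). The share of all tested genes without overlap was not worked out in TPM. As a share of the summed TPM of the 8 ligands, CD274 took 11.9 ± 0.989% in knockout and 8.41 ± 0.857% in wild-type samples, and PVR 32.9 ± 1.45% and 36.2 ± 2.32%.

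CD274 (ENSG00000120217, GRCh38 chromosome 9, 5450503 to 5470566, plus strand) encodes PD-L1, the main ligand of PD-1. It had 40.03, 38.15, 42.6 and 48.3 CPM in knockout replicates 1, 2, 3 and 5, against 31.7, 30.6, 38.36 and 33.5 CPM in the wild-type ones. The lowest knockout library (replicate 2) lay just under the highest wild-type library (replicate 3), and the other values did not overlap. CD274 rose 1.26-fold (log2 change 0.33, SE 0.08, adjusted p = 0.00237), on 1812 to 2438 counts per knockout library and 1220 to 1815 per wild-type library. It passed in 18 of 18 other settings, with log2 changes from 0.26 to 0.41.

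The promoter of CD274 is shown because it holds matches to motifs of interferon regulatory and STAT factors. It is the RefSeq sequence on GRCh38.p14 from 250 bases before to 50 bases after the start, plus strand, at chr9:5450292-5450591. Capitals mark matches to the core of the interferon-stimulated response element (ISRE; TTTC, any 2 bases, TTTC) and to the STAT site GAS (TTCNNNGAA), searched on both strands.
CD274: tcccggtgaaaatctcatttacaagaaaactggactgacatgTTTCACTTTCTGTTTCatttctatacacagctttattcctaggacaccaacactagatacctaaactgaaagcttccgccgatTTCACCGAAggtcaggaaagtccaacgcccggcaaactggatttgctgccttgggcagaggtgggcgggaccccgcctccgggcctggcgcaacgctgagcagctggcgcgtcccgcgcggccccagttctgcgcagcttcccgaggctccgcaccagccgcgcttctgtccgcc
The capitals hold 2 ISRE cores that overlap by 4 bases, TTTCACTTTC and TTTCTGTTTC, and 1 GAS site. An ISRE core stands in 3.57% and a GAS site in 7.66% of the 35116 promoters of the table, and an E-box (CACGTG) in 7.26%. The E-box was in none of the 8 promoter sequences, covering 7 ligands, that the table gives. An ISRE core was found in the promoters of CD274 and LGALS9 and not in those of the other 5 ligands with a sequence. Whether the motif goes with the direction of change was not tested. A match is a description of the letters and not evidence of binding.

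The interferon route to CD274 was covered by a list of 16 receptor, kinase, STAT, IRF and feedback genes, of which 5 rose, 2 fell and 9 did not pass, against 47.6% called among all tested genes, with a median log2 change of 0.01, against 0.00 over all tested genes. IRF2, an ISRE-binding factor that competes with IRF1, fell to 9.65 ± 0.846 CPM in knockout samples, against 19.5 ± 0.477 CPM in wild-type samples (log2 change -1.02, adjusted p = 2.06e-10). PTPN2, a phosphatase that dampens JAK and STAT signalling, fell to 60.9 ± 1.29 CPM, against 76.6 ± 5.49 CPM in wild-type samples (adjusted p = 1.44e-05). IFNGR1, a chain of the interferon-gamma receptor, rose (41.1 ± 0.936 CPM in knockout and 32.9 ± 1.65 CPM in wild-type samples, adjusted p = 2.38e-05), as did STAT2 (52.4 ± 3.37 and 41.9 ± 1.86 CPM, adjusted p = 3.80e-05) and the kinase TYK2 (89.2 ± 3.50 and 81.1 ± 1.23 CPM, adjusted p = 0.0150). The feedback gene SOCS1 (1.26 ± 0.145 and 0.830 ± 0.257 CPM, adjusted p = 0.0238) and IRF9 (3.34 ± 0.352 and 2.52 ± 0.414 CPM, adjusted p = 0.0192) rose too, named after their values were seen. TYK2 no longer passed when knockout replicate 3 (adjusted p = 0.0564) or wild-type replicate 1 (0.0535) was left out, or with no filter on low counts (0.0545). IRF1, which activates CD274, had 24.2 ± 0.550 CPM in knockout and 25.2 ± 3.68 CPM in wild-type samples (log2 change -0.06, adjusted p = 0.617), but it passed as lower without wild-type replicate 3 (-0.15, adjusted p = 0.0274). The count that rose was 3 in place of 5 without knockout replicate 3. These sentences give RNA levels and do not show whether the route was active.

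PDCD1LG2 (ENSG00000197646, chromosome 9, 5510570 to 5571254, plus strand), which encodes PD-L2 and lies next to CD274, did not pass. It had 2.04, 1.98, 1.46 and 1.88 CPM in knockout replicates 1, 2, 3 and 5, against 1.75, 1.58, 2.54 and 2.51 CPM in the wild-type ones. The wild-type libraries fell into a low pair (1 and 2) and a high pair (3 and 5), and the knockout values lay within or just below that range. The log2 change was -0.19 (SE 0.17, adjusted p = 0.384) on 63 to 120 counts per library, so a change of the size of that of CD274 may not be detectable at this depth. The TPM ratio of CD274 to PDCD1LG2 was 11.3, 11.1, 16.8 and 14.8 in knockout replicates 1, 2, 3 and 5 and 10.5, 11.1, 8.71 and 7.68 in the wild-type ones. The ratio did not pass an exact two-sided permutation test over the 8 samples (p = 0.0571, adjusted p = 0.114 over 2 ratios, smallest possible p 0.0286), so a different response of the PD-1 ligands was not shown. It was higher in the knockout sample of 3 of 4 same-numbered pairs (exact sign-flip p = 0.25).

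Tested protein-coding neighbours of this pair were examined, 5 on either side. INSL4 (1.87 CPM in knockout and 0.679 CPM in wild-type samples, log2 change 1.46) and RLN2 (0.312 and 0.142 CPM, log2 change 1.12), insulin- and relaxin-like hormone genes, rose at low levels. RCL1 fell by 0.22 and 7 did not pass, against 47.6% called among all tested genes. INSL4 did not pass once wild-type replicate 3 was left out (adjusted p = 0.0599), nor RLN2 with DESeq2 (0.0594). JAK2, the kinase of the interferon-gamma receptor, had 11.7 CPM in knockout and 12.2 CPM in wild-type samples (log2 change -0.06, adjusted p = 0.616). The median log2 change of the 50 nearest tested genes, 25 on each side, was -0.07 for CD274, which relative to them stood at 0.39 (adjusted p = 0.000230).

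**Figure D2:**
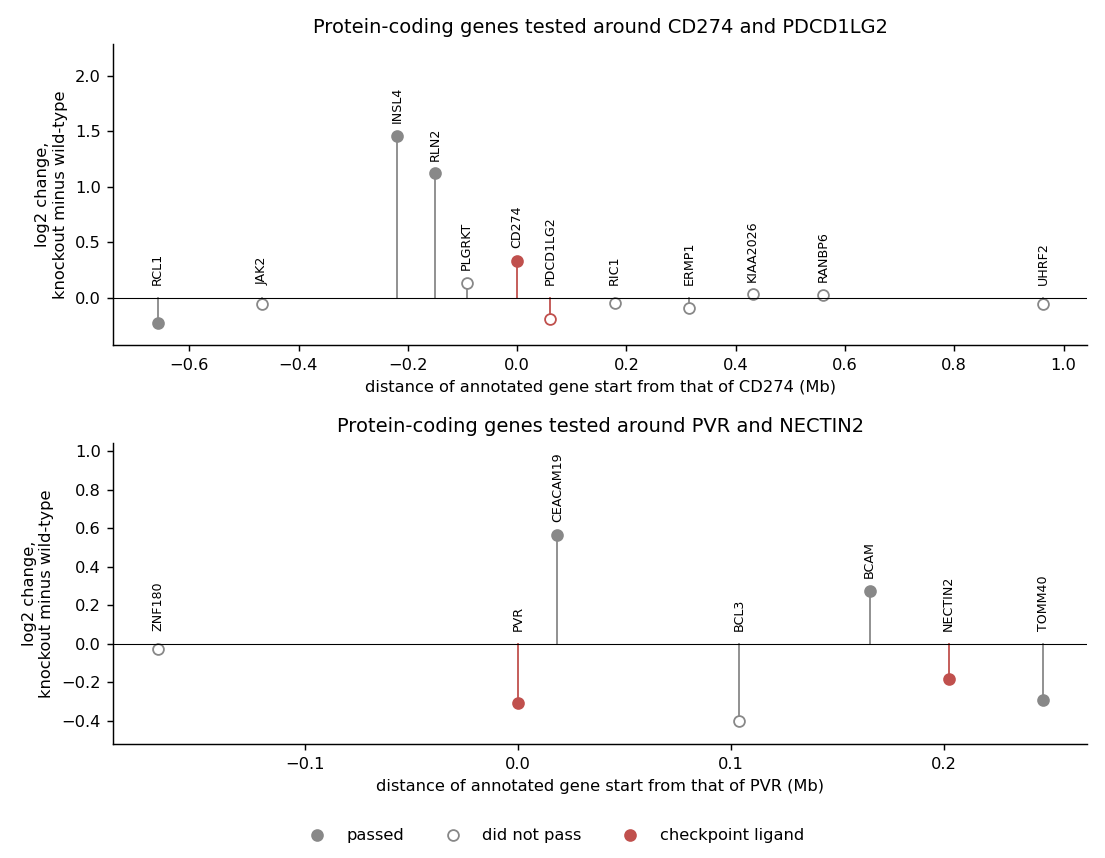
Log2 change, knockout minus wild-type (vertical axis), of tested protein-coding genes around CD274 and PDCD1LG2 (top) and around PVR and NECTIN2 (bottom), placed by the distance of their annotated start from that of CD274 or PVR (Mb); filled points passed and open ones did not, and the ligands are red. CD274 at 0.33 and PDCD1LG2 at -0.19 stand side by side between genes that mostly did not pass, and PVR and NECTIN2 lie below 0, and of the genes between them CEACAM19 and BCAM lie above 0 and BCL3, which did not pass, at -0.40.

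CD276 (ENSG00000103855, chromosome 15, 73683966 to 73714518, plus strand), which encodes B7-H3, a family member often abundant on carcinoma cells, fell. It had 67.3, 75.2, 72.0 and 75.2 CPM in knockout replicates 1, 2, 3 and 5, against 87.3, 86.0, 80.9 and 84.2 CPM in the wild-type ones. In CPM, though not in TPM, every knockout value lay below every wild-type value. The log2 change was -0.22 (SE 0.05, adjusted p = 0.000548), 0.856-fold. The tested genes around it were slightly higher in the knockout, with a median of 0.15, and relative to them CD276 stood at -0.38 (adjusted p = 5.97e-06).

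VSIR (ENSG00000107738, chromosome 10, 71747559 to 71773498, minus strand), which encodes VISTA and is better known from myeloid and T cells, did not pass. It had 5.23, 5.68, 5.02 and 5.06 CPM in knockout replicates 1, 2, 3 and 5, against 5.36, 5.96, 2.35 and 6.82 CPM in the wild-type ones. Knockout libraries lay close together, and wild-type replicate 3 lay well below all the others. The log2 change was 0.04 (SE 0.28, adjusted p = 0.925). Its sign turned without wild-type replicate 3 (-0.20, adjusted p = 0.119) and without knockout replicate 2 (-0.002, adjusted p = 0.996). VSIR lies within the span of CDH23 on the opposite strand, but CDH23 had 8 counts over the knockout and 3 over the wild-type group.

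Wild-type replicate 3 was the highest or the lowest wild-type library for 8 of the 8 ligands, against 62.4% of all tested genes, and each other wild-type library for 2 to 4 of them. Without it CD274 stood at 0.41, CD276 at -0.24 and PVR at -0.26, and the count of called ligands was again 2 higher and 4 lower.

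CD47 (ENSG00000196776, chromosome 3, 108043094 to 108091862, minus strand), the ligand that restrains phagocytosis, showed the smallest called change. It had 84.7, 89.1, 89.4 and 88.9 CPM in knockout replicates 1, 2, 3 and 5, against 97.9, 104.4, 91.3 and 92.7 CPM in the wild-type ones. The groups did not overlap in CPM, though they did in TPM, and knockout replicate 3 and wild-type replicate 3 lay within 2 CPM of each other. The log2 change was -0.13 (SE 0.05, adjusted p = 0.0280), 0.912-fold. CD47 did not pass when libraries were scaled by their upper quartiles (-0.07, adjusted p = 0.257) or by their totals alone (-0.07, 0.258), or when testing was limited to genes whose log2 CPM averaged 1 or more (0.0757). Nor did it pass when wild-type replicate 1 (0.0615), wild-type replicate 2 (0.118) or knockout replicate 1 (0.0741) was left out. Relative to its neighbours, whose median was 0.11, CD47 stood at -0.25 (adjusted p = 0.000472).

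Several genes act on PD-L1 or CD47 after transcription, and of 16 tested on such a list 3 rose, 3 fell and 10 did not pass, against 47.6% called among all tested genes, with a median log2 change of -0.06. QPCTL, the enzyme that modifies CD47 so that SIRPA binds it well, fell to 11.2 ± 0.585 CPM in knockout samples, against 14.7 ± 0.841 CPM in wild-type samples (log2 change -0.40, adjusted p = 8.79e-05). CMTM6, which keeps PD-L1 at the membrane, had 184 ± 5.24 and 198 ± 6.31 CPM (log2 change -0.10, adjusted p = 0.0621) and passed in a fit blocked on replicate number (adjusted p = 0.0333), with DESeq2 (0.0370) and with the authors' variance-stabilized values (0.0461). CMTM4, a related protein with a like role, fell to 37.3 ± 1.89 CPM, against 60.7 ± 4.86 CPM in wild-type samples (log2 change -0.70, adjusted p = 2.21e-09), and STT3B, a subunit of the oligosaccharyltransferase, fell too (321 ± 17.7 and 366 ± 12.9 CPM, adjusted p = 0.00337). B3GNT3, a glycosyltransferase that acts on PD-L1, rose to 10.7 ± 0.408 CPM, against 6.59 ± 0.528 CPM in wild-type samples (log2 change 0.70, adjusted p = 4.03e-07), as did the kinase GSK3B (150.1 ± 6.73 and 127 ± 1.85 CPM, adjusted p = 0.000137). The deubiquitinase USP22 rose at the threshold (adjusted p = 0.0483), a call that was lost in 10 of 18 other settings. With the replicate block 6 of the 16 fell in place of 3, and 7 fell relative to neighbours. The count that fell was 5 with DESeq2, without wild-type replicate 5, or with the variance-stabilized values, and the count that rose was 5, in place of 3, with upper-quartile scaling or library totals.

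PVR (ENSG00000073008, chromosome 19, 44643798 to 44663583, plus strand), the high-affinity ligand of TIGIT and CD226, showed the largest fall among the ligands. It had 102.0, 94.7, 103.5 and 98.7 CPM in knockout replicates 1, 2, 3 and 5, against 126.8, 116.3, 134.4 and 116.7 CPM in the wild-type ones. Every knockout library lay below every wild-type one. The log2 change was -0.31 (SE 0.05, adjusted p = 3.88e-05), 0.807-fold, and it passed in 18 of 18 other settings, between -0.34 and -0.24. The end of PVR overlaps an exon of CEACAM19 on the same strand, which rose to 7.09 ± 0.618 CPM in knockout samples, against 4.79 ± 0.259 CPM in wild-type samples (log2 change 0.57, adjusted p = 5.49e-05). CEACAM19 had 1382 counts over the knockout and 839 over the wild-type group, and PVR had 19427 and 21738. How reads in the overlap were counted is not given in the sources used here, and its part in either change was not tested.

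The promoter of PVR is shown beside that of CD274 as the ligand with the largest fall (RefSeq, GRCh38.p14, plus strand, chr19:44643660-44643959). None of the motifs searched was in it, so no letters are in capitals.
PVR: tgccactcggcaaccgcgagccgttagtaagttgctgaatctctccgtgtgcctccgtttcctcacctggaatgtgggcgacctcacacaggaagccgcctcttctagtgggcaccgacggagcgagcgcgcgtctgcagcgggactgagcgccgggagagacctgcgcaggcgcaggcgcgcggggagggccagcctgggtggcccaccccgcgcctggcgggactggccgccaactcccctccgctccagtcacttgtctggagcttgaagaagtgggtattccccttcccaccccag
Its base composition was 67.3% G or C with 27 CG dinucleotides, and the promoters of CD276, CD47 and NECTIN2, which fell too, had 68.3% to 80.3% and 26 to 45. That of VSIR, which did not pass, lay in the same range with 72.0% and 35. That of CD274 had 57.3% and 22, near the median of 58.7% and above the median of 14 over all promoters of the table.

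NECTIN2 (ENSG00000130202, chromosome 19, 44846175 to 44889228, plus strand), which binds the inhibitory receptors PVRIG and TIGIT, lies near PVR and fell as well. It had 82.0, 83.4, 77.3 and 85.7 CPM in knockout replicates 1, 2, 3 and 5, against 95.6, 94.5, 83.8 and 98.7 CPM in the wild-type ones. Wild-type replicate 3 lay among the knockout values and the other wild-type libraries above them. The log2 change was -0.18 (SE 0.05, adjusted p = 0.00684), 0.882-fold, but it did not pass under upper-quartile scaling (-0.12, adjusted p = 0.0801) or scaling to library totals (-0.12, 0.0985). The TPM ratio of PVR to NECTIN2 was 1.30 ± 0.1001 in knockout and 1.42 ± 0.201 in wild-type samples (SD, n = 4 each; exact two-sided permutation p = 0.314 over 8 samples), so a different fall of the pair was not shown. The ratio was lower in the knockout sample of 4 of 4 same-numbered pairs, where an exact sign-flip test over pairs gave p = 0.125, the smallest that 4 pairs allow. Between them, BCL3, an inhibitor-kappa-B family gene, had 1.92 CPM in knockout and 2.55 CPM in wild-type samples (log2 change -0.40, adjusted p = 0.0536). BCAM, a laminin receptor, rose (16.2 CPM in knockout and 13.4 CPM in wild-type samples, adjusted p = 0.0105), and TOMM40, the neighbour just beyond NECTIN2, fell (180.9 and 221 CPM, adjusted p = 3.96e-05).

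The related nectins were tested beside them, NECTIN3 being the partner that NECTIN2 and PVR bind between cells. NECTIN1 had 80.3 ± 2.76 CPM in knockout and 75.6 ± 5.73 CPM in wild-type samples (log2 change 0.09, adjusted p = 0.183) and passed as higher with upper-quartile scaling (0.0206) and library totals (0.0317). NECTIN3 had 53.9 ± 4.53 and 60.96 ± 8.05 CPM (log2 change -0.18, adjusted p = 0.122). It passed as lower with the replicate block (adjusted p = 0.00371), with no filter on low counts (0.00221), without wild-type replicate 1 (0.0122) and relative to neighbours (0.0106). NECTIN4 was near 0, with 14 counts over the knockout and 3 over the wild-type group.

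LGALS9 (ENSG00000168961, chromosome 17, 27629798 to 27649560, plus strand), which encodes galectin-9, rose, at a level near the limit of detection. It had 49, 34, 40 and 19 counts in knockout replicates 1, 2, 3 and 5, against 16, 8, 7 and 11 counts in the wild-type ones. In CPM these were 1.0001, 0.716, 0.836 and 0.377 in the knockout libraries, against 0.378, 0.200, 0.148 and 0.240 in the wild-type libraries. Knockout replicate 5 and wild-type replicate 1 met, and the other knockout libraries lay above all wild-type ones. The fold was 3.02 (log2 change 1.60, SE 0.33, adjusted p = 0.000461). On the authors' variance-stabilized scale, which compresses low counts, the difference was 0.48 (adjusted p = 0.000871).

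The promoter of LGALS9 (RefSeq, GRCh38.p14, plus strand, chr17:27630938-27631237) is shown because it holds the other ISRE core, in capitals.
LGALS9: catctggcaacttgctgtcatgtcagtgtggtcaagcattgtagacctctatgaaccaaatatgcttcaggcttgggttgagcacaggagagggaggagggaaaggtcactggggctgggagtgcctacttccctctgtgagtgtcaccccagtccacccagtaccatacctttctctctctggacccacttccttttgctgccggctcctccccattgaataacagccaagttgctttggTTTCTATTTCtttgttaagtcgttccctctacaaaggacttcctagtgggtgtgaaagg
The match TTTCTATTTC lies at the start itself, where those of CD274 lie 193 to 208 bases before it. This promoter had only 2 CG dinucleotides, against 22 to 45 in those of the other 6 ligands.

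LGALS9 has near-identical copies, LGALS9B and LGALS9C, and reads shared among them could have been counted at any, so its level is uncertain. LGALS9C had 36, 40, 26 and 28 counts in knockout replicates 1, 2, 3 and 5, against 1, 3, 1 and 6 in the wild-type ones, and it rose more than LGALS9 (log2 change 3.36, adjusted p = 6.97e-07). LGALS9B, too low to be tested, had 48 counts over the knockout and 6 over the wild-type group. Summed over the 3 genes, counts ran from 54 to 106 in knockout libraries, against 10 to 19 in wild-type ones, without overlap. Which copy the reads came from was not resolved.

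**Figure D3:**
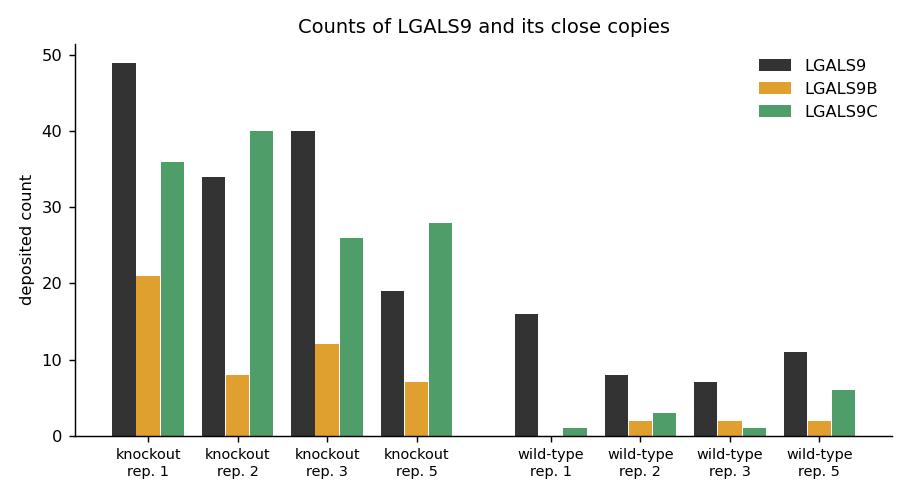
Deposited counts (vertical axis from 0) of LGALS9 and its copies LGALS9B and LGALS9C in each library, knockout on the left and wild-type on the right. All bars of the knockout libraries sum to 54 to 106, against 10 to 19 in the wild-type libraries, and LGALS9C has 26 to 40 counts in knockout libraries, against 1 to 6 in wild-type ones.

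Many receptors of these ligands are immune cell genes, and of 19 receptors and partners on the list 9 stayed under 1 CPM in every library. Other partners were abundant. RGMB (153 CPM in knockout and 134 CPM in wild-type samples) and AFDN (181 and 161 CPM) rose, and CD44 (775 and 794 CPM) and P4HB (644 and 693 CPM) did not pass. PDCD1, which encodes PD-1, had 1 count over the knockout and 4 over the wild-type group, TIGIT 2 and 0, and PVRIG 0 and 1. HAVCR2, which encodes TIM-3, had 27 in each group, and CD80, listed as a partner, had none in either. CD226 had 92 counts over the knockout and 44 over the wild-type group, and rose (adjusted p = 0.0165). Of 12 tested receptors and partners 7 rose, 1 fell and 4 did not pass, against 23.9% higher and 47.6% called among all tested genes, with a median log2 change of 0.18. Leaving out any of 5 libraries (knockout replicates 1, 3 and 5, wild-type replicates 1 and 2) gave 5 that rose. CD96, a further receptor of PVR, was the one that fell (2.50 ± 0.488 CPM in knockout and 4.43 ± 1.28 CPM in wild-type samples, adjusted p = 0.00279). IGSF11, a ligand of VISTA, had 67 counts over the knockout group and 1 over the wild-type group (adjusted p = 1.38e-06), and SELPLG, which also binds VISTA, rose to 1.52 ± 0.153 CPM, against 0.627 ± 0.143 CPM in wild-type samples (adjusted p = 1.34e-05). THBS1, a secreted protein that binds CD47, rose to 1025 ± 55.8 CPM, against 455 ± 99.2 CPM in wild-type samples (log2 change 1.17, adjusted p = 0.000381). SIRPA, the receptor of CD47, rose too (5.94 ± 0.471 and 3.95 ± 0.715 CPM, adjusted p = 0.000396), named after its value was seen. With the replicate block 3 of the 12 fell in place of 1, and 2 did with DESeq2, limma-voom, no filter on low counts, or wild-type replicate 1 or 2 left out.

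**Figure D4:**
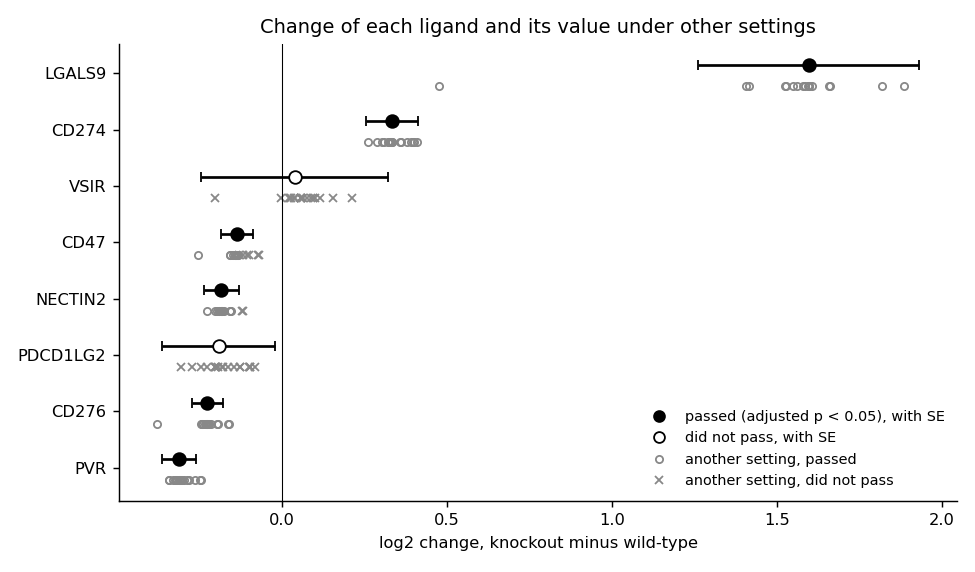
Log2 change, knockout minus wild-type (horizontal axis), of each ligand: large points with SE are the values reported, filled where the adjusted p was below 0.05, and small grey marks below them are the values in up to 18 other settings, circles where they passed and crosses where not. LGALS9 (1.60) and CD274 (0.33) lie right of 0 in every setting run, CD276 and PVR left of 0 with circles only, and CD47 and NECTIN2 left of 0 with some crosses.

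For each ligand that was called, the genes with the most similar pattern over the 8 samples were sought among 11495 other protein-coding genes whose log2 CPM averaged 1 or more (11496 for LGALS9), as the smallest root mean square distance between log2 CPM centred on each gene's mean. CD274 was nearest to FLRT2 (0.0477, log2 change 0.36) and HBEGF (0.0560, log2 change 0.25). HBEGF (adjusted p = 0.0254) did not pass when wild-type replicate 1 (0.0675), 2 (0.0706) or 5 (0.0516) was left out. CD276 was nearest to HACD2 (0.0240) and RBM24 (0.0255), PVR to ORAI2 (0.0295) and DHX38 (0.0322), and NECTIN2 to BRD8 (0.0247) and FCSK (0.0300). CD47 was nearest to SGCE (0.0331) and DLG1 (0.0365). SGCE and FCSK did not pass (adjusted p = 0.0931 and 0.0624) but did with the replicate block (0.0459 and 0.0415). LGALS9 had no near match, RHOD (0.239) and JPH2 (0.280) being the closest. No ligand was among the 2 nearest genes of another. This says little about whether the ligands moved together, since only 2 of so many genes were kept. LGALS9, below the level required, could not be returned.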

How the data were processed

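RNA-seq of ribosome-depleted total RNA gave 2 tables for 8 samples. The deposited counts are whole numbers per Ensembl gene, and variance-stabilized values on a log2 scale were deposited too, used here only as an alternative. The submitters' processing notes list the build hg38 and the tools DESeq2 1.23.10, FastQC 0.11.7, Subread 1.6.2 with featureCounts, and STAR 2.6.0c. The annotation release, strand setting and handling of reads with several positions are not given in the sources used here. Columns were matched to samples by name.

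Symbols matched 60333 of 60646 identifiers. GENCODE 29 (GRCh38, the build of hg38) matched 58459 and gave coordinates and exon lengths for TPM. The main test was edgeR 4.0.16 (R 4.3.3) on the counts: filterByExpr, TMM scaling, robust quasi-likelihood fit with group alone, Benjamini-Hochberg adjusted p below 0.05 over 19877 genes. Every adjusted p comes from it unless another test is named. CPM use TMM factors. Totals of 40103408 to 50031412 counts per library set the precision of low genes, and counts of reads are not counts of molecules. The members and lists were chosen with earlier results of these data known. Named genes were the members, DOT1L, the 3 called genes with the smallest adjusted p in each direction of each list, the 2 genes most alike each called member, and chromosomal neighbours. Other names (among them cell type markers, CMTM6, the nectins, CEACAM19, LGALS9 copies, SIRPA and most NKG2D ligands) were chosen after their values were seen.

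Knockout and wild-type samples share their replicate numbers. Over 13344 genes, residuals of samples with number 1, 2, 3 and 5 had correlations of 0.369, 0.148, 0.146 and 0.373, each over 0.1, so samples were treated as pairs in the blocked fit. No 2 replicates agreed within sampling noise (chi-square per degree of freedom 3.68 or more). On data simulated from these samples (19101 genes, 200 changed, far fewer than here) 83.6% of 67 genes were recovered at a 1.5-fold change, 98.5% of 67 at 2-fold and 100% of 66 at 4-fold, and 7.39% of calls were false. Alternatives were other scalings, DESeq2 1.42.0, limma 3.58.1, other filters, the replicate block, leaving out each sample, and an offset for the 25 tested genes on each side. The sign-flip test of ratios over pairs was chosen after seeing the data.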

Additional observations from a re-analysis of the deposited data

Results flagged for a closer look

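Among 18 groups of 4 libraries examined for the 8 ligands and DOT1L, 1 had a library far from the others, about as many as chance gives at 1 in 20. CD47 in knockout replicate 1 (84.7 CPM) lay apart from the other knockout libraries (88.9 to 89.4 CPM), with a gap of 0.891 of the group's range. Without that library the log2 change of CD47 was -0.12 (adjusted p = 0.0741).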

How the results depend on the processing

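Between 7506 and 10472 genes were called over the alternatives, against 9458; leaving out each library gave 8463 to 9606 and the replicate block 10472. The count of ligands that fell was 2 with upper-quartile scaling and 2 with library totals alone, against 4, CD47 and NECTIN2 being the ones lost. When testing was limited to genes whose log2 CPM averaged 1 or more, 1 ligand rose, against 2, because LGALS9 is below that level, and 3 fell, without CD47. With the replicate block 2 ligands rose and 4 fell, and of the named genes it changed the calls given beside them and that of MICA. Leaving out each library gave 2 ligands higher each time and 3 to 4 lower. Of 965 values of 54 named genes under the alternatives, 904 kept direction and call, 31 lost the call, 20 gained it and 10 turned. Those that turned were VSIR (-0.203 without wild-type replicate 3, -0.002 without knockout replicate 2, and at the other end 0.212 without wild-type replicate 5), JAK2 (0.006 with upper-quartile scaling, 0.003 with library totals) and IRF1 (0.008 with upper-quartile scaling, 0.003 with library totals, 0.001 without wild-type replicate 5, and a gained call as lower at -0.152 without wild-type replicate 3). Relative to neighbours they were NECTIN1 (-0.027), DHX38 (0.052) and FCSK (0.177). The cause was not tested. At these depths LGALS9, PDCD1LG2 and VSIR are the ligands whose values are least precise.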

Other observations

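Other ligands of T and NK cell receptors, and CD24, a ligand of a macrophage receptor, were also measured, from a list chosen with earlier results known. Of 30 on the list 19 were tested, 12 rose, 0 fell and 7 did not pass, with a median log2 change of 0.48, against 23.9% of all tested genes higher and a median of 0.00. CD24, a ligand of SIGLEC10 on macrophages, rose to 9.52 ± 0.387 CPM in knockout samples, against 1.35 ± 0.254 CPM in wild-type samples (SD, n = 4 each, log2 change 2.81, adjusted p = 7.46e-14). CEACAM1, an adhesion molecule that binds TIM-3, rose to 4.003 ± 0.726 CPM, against 0.698 ± 0.157 CPM in wild-type samples (log2 change 2.53, adjusted p = 2.77e-10). The galectins LGALS1 (474 ± 26.8 CPM in knockout and 377 ± 15.2 CPM in wild-type samples) and LGALS3 (60.1 ± 6.76 and 46.5 ± 2.95 CPM) rose too. Of the B7 family members on the list, VTCN1, HHLA2, ICOSLG, CD80 and CD86 had at most 7 counts over the knockout and 1 over the wild-type group. NCR3LG1, which encodes the family member B7-H6, had 652 and 422 counts and rose (log2 change 0.48, adjusted p = 0.0166). With the replicate block 2 of the 19 fell (MICA and NECTIN3), and relative to chromosomal neighbours 4 did. The count that fell was 0 at an unadjusted p below 0.05, 0 with DESeq2 and limma-voom, and 1 with no filter on low counts or without wild-type replicate 1 or 2.

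A group among them was the ligands of NKG2D, an activating receptor of NK cells. Of 7 tested, 5 rose and 2 did not pass, against 23.9% higher and 47.6% called among all tested genes. ULBP3 had 62.9 ± 0.306 CPM in knockout and 44.8 ± 1.56 CPM in wild-type samples (adjusted p = 1.39e-08), ULBP2 27.8 ± 0.689 and 18.5 ± 0.907 CPM (2.80e-08), RAET1G 8.10 ± 0.697 and 3.15 ± 0.716 CPM (3.46e-08), RAET1E 9.72 ± 0.658 and 5.41 ± 0.488 CPM (1.22e-07), and RAET1L 0.537 ± 0.156 and 0.114 ± 0.1104 CPM (0.000208). These genes form 1 cluster on chromosome 6, their close similarity leaves single values uncertain, and the neighbouring genes had a median log2 change of 0.16 to 0.17. Relative to their neighbours the 5 stood at 0.32 to 2.13 and passed, and MICA (-0.25, adjusted p = 0.00198) and MICB (-0.23, 0.00139) passed as lower. MICA, which lies elsewhere on that chromosome, had 48.1 ± 2.57 CPM in knockout and 51.6 ± 3.26 CPM in wild-type samples (adjusted p = 0.134, 0.0484 with the replicate block, 0.0437 without wild-type replicate 2), and MICB 47.2 ± 2.25 and 49.9 ± 2.53 CPM (adjusted p = 0.221).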
